A study of Mus musculus with 44 samples.

Results

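Histone lysine methyltransferases and demethylases write and remove methyl groups on histone tails, and 38 of the 46831 genes in the count table were taken as this family. A gene was included if its symbol starts with Kmt, Kdm, Setd, Ezh, Nsd or Suv39h. Kdm5c, Kdm5d, Kdm6a and symbols with -ps, os or Rik were left out, which removed 4 symbols. The set held 8 H3K4 methyltransferases (Kmt2a to Kmt2e, Setd1a, Setd1b and Setd7), 4 H3K9 methyltransferases (Suv39h1, Suv39h2, Setdb1 and Setdb2), 2 H3K27 methyltransferases (Ezh1 and Ezh2), 2 H3K36 methyltransferases (Nsd1 and Setd2) and 1 H4K20 methyltransferase (Setd8, now named Kmt5a). It also held 4 other SET domain genes (Setd3 to Setd6), 2 flavin-dependent demethylases of the LSD type (Kdm1a and Kdm1b) and 14 genes of the Jumonji demethylase group. Kdm4dl of that group is annotated as an unprocessed pseudogene, and Nsdhl, an enzyme of sterol synthesis, entered by its prefix only. Nsd2, Nsd3, Kmt5b and Kmt5c are listed in the table under the older symbols Whsc1, Whsc1l1, Suv420h1 and Suv420h2 and are therefore not members.

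Each member was measured in 44 libraries of skeletal cells sorted from the epiphysis of mouse long bones at postnatal day 3, as an input library (mRNA) and as an m6A immunoprecipitate (IP), which enriches RNA carrying N6-methyladenosine. The study names its Mettl3fl/fl control mice wild type (WT), and these carry the floxed allele. Whether the mice of all 8 WT populations were Mettl3fl/fl is not stated, and the sample titles give wild type only. WT mice gave 8 populations with 2 input and 2 IP libraries each. These were the stem and progenitor populations SSC (skeletal stem cell), pBCSP and BCSP (bone, cartilage and stroma progenitors) and the downstream populations PCP (pro-chondrogenic progenitor), THY, BLSP (B-cell lymphocyte stromal progenitor), 6C3 and HEC (hepatic leukemia factor expressing cell), all taken from CD45-, Ter119- and Tie2- cells by surface markers. Mettl3cko mice were Mettl3fl/fl;Col2a1-Cre, in which Cre is driven by the promoter of type II collagen and acts in cells with a Col2a1 history, and gave SSC, pBCSP and BCSP with 2 input and 2 IP libraries each. The genotype of these 12 libraries rests on their titles and on the letters KO in their column names in the count table. Another label, for genotype, gives wild type throughout. The study reported deletion of Mettl3 in such mice by qRT-PCR and Western blot, and less m6A by dot blot. The Mettl3 count, taken over the whole gene and so no test of a partial deletion, was 486 and 593 in the SSC input libraries labelled Mettl3cko against 454 and 449 in WT. It was 759 and 741 against 369 and 526 in pBCSP, where both Mettl3cko libraries were above both WT libraries (log2 difference 0.69 ± 0.26, edgeR adjusted p = 0.350), and 458 and 607 against 571 and 618 in BCSP. Over the 3 populations the log2 difference in Mettl3 was 0.25 ± 0.15 (SE, edgeR adjusted p = 0.362), so the counts did not separate the genotypes. Mettl3cko below means the libraries carrying that label.

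Total counts ran from 19795666 to 44046651 in the 16 WT input libraries, from 16480027 to 35856651 in the 16 WT IP libraries, and from 22056571 to 35325482 in the libraries labelled Mettl3cko. The 6 IP libraries labelled Mettl3cko stood apart. They detected 12685 to 14415 genes against 16250 to 27025 in WT IP libraries, had 4 to 7 members at 3 counts or fewer against 0 to 4, and correlated between replicates at r = 0.575 to 0.664 against 0.888 to 0.968 (log2 CPM). The WT IP libraries also split by population. Mitochondrial genes held 1.56% to 2.92% of counts in SSC, pBCSP and BCSP IP libraries and 4.53% to 9.10% in downstream IP libraries. Genes detected were 16250 to 18714 in the former and 18996 to 27025 in the latter. Of the markers fixed for other cells, the summed level of 6 erythroid genes was 0.726 to 5.83 CPM in stem and progenitor WT inputs, 17.2 to 143 CPM downstream and 10.01 to 51.8 CPM in the inputs labelled Mettl3cko. The summed level of 6 chondrocyte markers was 90328 to 108712 CPM in stem and progenitor WT inputs and 7312 to 97974 CPM downstream, where HEC, at 76189 and 97974 CPM, reached into the stem and progenitor range. In bulk libraries, fewer cells of a type and less RNA per cell cannot be told apart.

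Methylation of H3K4 is found at active promoters and enhancers and is written by the KMT2 and SETD1 enzymes within COMPASS complexes. Methylation of H3K27 by EZH1 or EZH2, the catalytic subunits of Polycomb repressive complex 2 (PRC2), marks silenced developmental genes, and KDM6B removes it. SETD2 places H3K36 trimethylation over transcribed gene bodies, NSD1 places H3K36 dimethylation, SUV39H1, SUV39H2 and SETDB1 place H3K9 trimethylation in heterochromatin, and SETD8 places the single methyl group on H4K20 that is tied to the cell cycle. EZH1 and EZH2 are known to be needed for normal growth plate cartilage, the tissue in which these cells reside.

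Ezh2 and Setd8 moved in opposite directions between the stem and progenitor populations and the downstream populations, so the RefSeq windows around their start sites (GRCm38.p6, 250 bases before to 50 bases after) are shown. The Ezh2 gene lies at chr6:47530139-47595341 on the minus strand, and its window is chr6:47594981-47595280, written along that strand. Setd8 lies at chr5:124439930-124462308 on the plus strand, and the window at its first start site is chr5:124439680-124439979. Capitals mark matches on either strand to the letters CCAAT (or ATTGG), to the E2F-type letters TTTCCCGC, TTTGGCGC or TTTCGCGC, and to TTTGAA.
Ezh2: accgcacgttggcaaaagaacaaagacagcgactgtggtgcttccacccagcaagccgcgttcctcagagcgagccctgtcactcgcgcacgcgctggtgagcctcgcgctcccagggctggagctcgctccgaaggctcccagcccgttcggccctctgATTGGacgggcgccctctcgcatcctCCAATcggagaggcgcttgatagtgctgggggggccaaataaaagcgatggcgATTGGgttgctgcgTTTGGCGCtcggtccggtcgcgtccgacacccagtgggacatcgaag
Setd8: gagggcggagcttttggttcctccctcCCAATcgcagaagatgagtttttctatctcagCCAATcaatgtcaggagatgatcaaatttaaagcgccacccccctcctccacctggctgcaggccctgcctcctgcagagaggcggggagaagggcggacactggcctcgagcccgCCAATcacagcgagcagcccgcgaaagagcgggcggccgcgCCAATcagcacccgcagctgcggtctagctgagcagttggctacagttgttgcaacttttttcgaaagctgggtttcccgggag
The Ezh2 window held TTTGGCGC from position 4 after the start and CCAAT letters beginning at -90, -64 and -11. The first Setd8 window held CCAAT at -223, -191, -75 and -34 and none of the E2F-type letters. Windows were found for 28 members. Ezh2 was the 1 member of 28 with an E2F-type match, which 2.12% of 27025 genes had, while 14 of the 28 members (50%) and 41.1% of all genes had CCAAT letters, and 4 of 28 (14.3%) and 20.2% had TTTGAA. A match is a description of the letters and not evidence of binding.

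The family was expressed at very unequal levels. Per kilobase of exon, the mean input level over the 16 WT libraries was highest for Kdm6b, the H3K27 demethylase, at 129.6 CPM per kb, 6.60-fold above Kmt2e, the next, at 19.6. Setd3, a SET domain enzyme that methylates actin, followed at 9.92, the H3K9 demethylase Kdm4b at 7.87 and Ezh2 at 6.59. The median over the 38 members was 2.19 CPM per kb, 10 members were under 1, and the pseudogene Kdm4dl was lowest at 0.0285. Kdm6b alone held 24.4% to 64.8% (median 44.0%) of all member counts in WT input libraries and 47.2% to 75.7% (median 62.3%) in WT IP libraries. Exons of 16 members overlap those of another annotated gene. For Kdm6b (chr11:69398508-69413675, minus strand) the antisense gene Kdm6bos covers 4.11% of its exon bases. For Setd1a an overlapping gene on the same strand covers 51.9%, for Suv39h1 antisense Gm14820 covers 14.6% and for Kmt2e Srpk2 on the other strand covers 9.31%, so reads of these pairs may not be separated.

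The first comparison asked which members differ in mRNA among the 8 WT populations. Of 37 members that passed the filter on low counts (all but Kdm4dl), 17 differed at an edgeR adjusted p under 0.05, beside 40.1% of the 20060 genes tested. In order of p these were Ezh2, Kmt2d, Kdm7a, Setd8, Setd2, Nsd1, Kdm4b, Kdm6b, Suv39h1, Kdm3a, Kdm5a, Kmt2b, Kdm4a, Kdm1a, Setd6, Kmt2e and Setdb2. They include 3 of 8 H3K4 methyltransferases, both H3K36 methyltransferases, and Ezh2 but not Ezh1. The calls of Kdm1a and Kmt2e held in 6 and that of Setdb2 in 4 of 16 fits that left out 1 library. At the other end Setd5, Kdm4d, Setd7, Kdm1b, Kdm8 and Setd4 had adjusted p from 0.571 to 0.746.

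**Figure D1:**
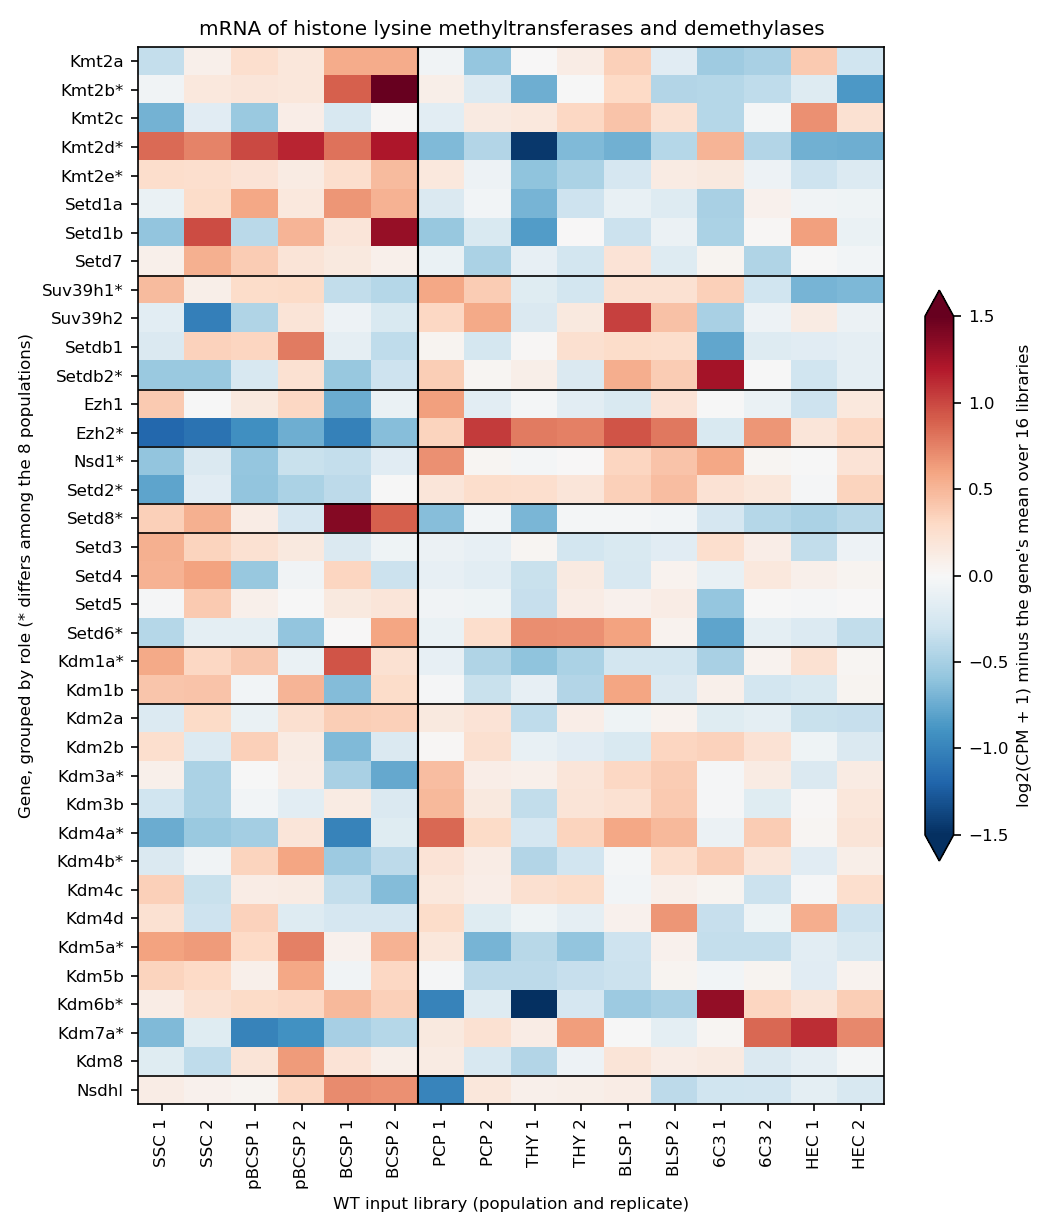
Level of the 37 members tested (1 line each, grouped by role) in the 16 WT input libraries (columns), as log2(CPM + 1) minus the mean of that member over the 16 libraries; an asterisk marks the 17 members that differed among the 8 populations. Ezh2, Kdm7a, Setd2 and Nsd1 are at or below their mean in SSC, pBCSP and BCSP, and Kmt2d and Kdm5a are above it there.

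Ezh2, the main catalytic subunit of PRC2 in dividing cells, was measured at 16.4 and 17.2 CPM in SSC, 19.8 and 22.6 in pBCSP, 18.5 and 24.3 in BCSP, 48.4 and 80.3 in PCP, 66.1 and 65.1 in THY, 74.1 and 67.0 in BLSP, 32.6 and 61.2 in 6C3, and 43.3 and 47.7 in HEC. Every stem and progenitor library was below every downstream library. The order of the population means ran from BLSP through THY, PCP, 6C3, HEC, BCSP and pBCSP to SSC, where the replicates of BLSP and THY, of HEC and BCSP, and of pBCSP and SSC did not overlap and the other neighbours did. Its paralogue Ezh1, which serves PRC2 in cells that do not divide, ranged from 15.7 to 42.0 CPM over all 16 libraries with overlapping neighbours throughout the order (adjusted p = 0.497).

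Kmt2d (chr15:98831669-98871204, minus strand), an H3K4 monomethyltransferase of enhancers, showed the reverse pattern. It was at 139 and 129 CPM in SSC, 154 and 171 in pBCSP, 136 and 179 in BCSP, 48.0 and 56.4 in PCP, 27.6 and 48.3 in THY, 46.1 and 57.0 in BLSP, 110.1 and 56.4 in 6C3, and 46.1 and 46.0 in HEC. All 6 stem and progenitor libraries exceeded all 10 downstream libraries, and 6C3 library 1 came closest to them. The H3K4 demethylase Kdm5a was at 103 and 105 CPM in SSC, 83.1 and 114 in pBCSP, 70.0 and 96.6 in BCSP, and between 40.9 and 75.8 CPM in the downstream libraries, with 2 downstream libraries (PCP 1 at 75.8 and BLSP 2 at 70.2) above the lowest progenitor library.

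Kdm7a (chr6:39136623-39206789, minus strand), a demethylase of H3K9 and H3K27, was at 15.8 and 22.4 CPM in SSC, 12.2 and 13.2 in pBCSP, 17.7 and 18.7 in BCSP, 28.4 and 30.0 in PCP, 27.6 and 39.7 in THY, 25.4 and 22.9 in BLSP, 26.1 and 47.2 in 6C3, and 56.1 and 42.6 in HEC. HEC was highest and pBCSP lowest. The H3K36 enzyme Setd2 (chr9:110532597-110618633, plus strand) was at 16.3 and 25.5 CPM in SSC, 18.8 and 20.5 in pBCSP, 21.7 and 28.8 in BCSP, 33.0 and 34.8 in PCP, 34.5 and 32.8 in THY, 37.3 and 40.0 in BLSP, 33.8 and 32.6 in 6C3, and 28.6 and 36.7 in HEC. Only the higher BCSP library and the lower HEC library crossed between its 2 sets of populations. Nsd1 ranged from 35.4 to 47.7 CPM in the 6 stem and progenitor libraries and from 53.0 to 87.7 CPM in the 10 others, with no overlap.

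Setd8 was highest in BCSP, at 29.5 and 20.9 CPM, followed by SSC at 14.1 and 15.98. It was at 11.7 and 8.87 in pBCSP, 6.57 and 10.5 in PCP, 6.31 and 10.6 in THY, 10.5 and 10.4 in BLSP, 8.88 and 7.71 in 6C3, and 7.46 and 7.81 in HEC. The replicates of BCSP and SSC did not overlap with each other or with any other population. Suv39h1, an H3K9 methyltransferase, was highest in PCP at 14.8 and 12.7 CPM and lowest in HEC at 5.50 and 5.64 and in BCSP at 7.20 and 6.81. It differed within the stem and progenitor set, since SSC (13.7 and 10.2) and pBCSP (11.8 and 11.9) both lay above BCSP.

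**Figure D2:**
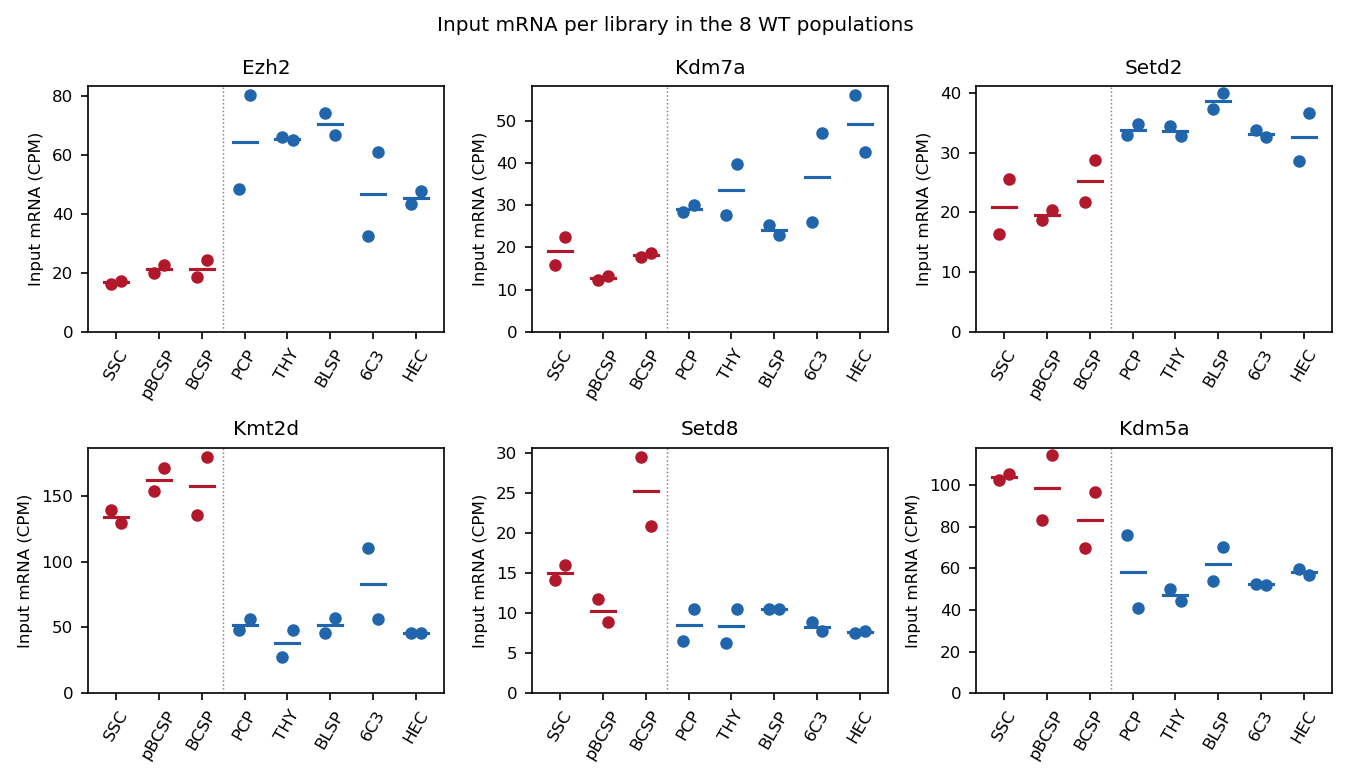
Input level (CPM, TMM-scaled) of Ezh2, Kdm7a, Setd2, Kmt2d, Setd8 and Kdm5a in the 8 WT populations; each point is 1 library, a bar is the mean and n = 2 per population. Ezh2 lies between 16.4 and 24.3 CPM in the stem and progenitor libraries and at 32.6 CPM or more downstream, and Kmt2d at 129 CPM or more against at most 110.1 CPM.

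Kdm6b and Kdm4b differed among populations without a split between stem and downstream cells. Kdm6b was at 886 and 963 CPM in SSC, 1006 and 1019.7 in pBCSP, 1153 and 1057 in BCSP, 409.8 and 717 in PCP, 289 and 689 in THY, 562 and 586 in BLSP, 2047 and 1029.7 in 6C3, and 944 and 1066 in HEC. The replicates of 6C3, PCP and THY each spread widely, and BLSP, PCP and THY were the 3 lowest. Kdm4b was lowest in BCSP, at 25.5 and 28.4 CPM, and highest in pBCSP, at 47.6 and 57.3 CPM. Kdm3a, an H3K9 demethylase of the hypoxia response, had a median of 33.7 CPM (22.8 to 42.8) in the stem and progenitor libraries and 43.0 CPM (33.7 to 54.8) downstream.

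The next comparison set the mean of SSC, pBCSP and BCSP against the mean of the 5 downstream populations in the same 16 libraries. Of 37 members, 9 were higher in the stem and progenitor cells, beside 23.1% of all genes tested, and 10 were lower, beside 28.3%. The median log2 difference was 0.12 over the members and -0.11 over all genes. By these counts the family was close to the background, and its content lies in the individual members. Ezh2 had the smallest p, with a log2 difference of -1.64 ± 0.16 (SE, adjusted p = 4.34e-07) and a mean 2.96-fold higher downstream. Kmt2d followed at 1.44 ± 0.15 (adjusted p = 6.71e-07), with a mean 2.79-fold higher in the stem and progenitor cells. Both kept their call when any 1 of the 16 libraries was left out.

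Among the H3K4 methyltransferases, 4 of 8 were higher in the stem and progenitor cells (Kmt2d, Kmt2e, Kmt2b and Setd1a) and Kmt2c was lower. Kmt2b had a log2 difference of 0.86 ± 0.25, Setd1a 0.60 ± 0.20 and Kmt2e, which binds H3K4me3 without known enzyme activity, 0.33 ± 0.09, and Kmt2c had -0.50 ± 0.15. Kmt2b (median 3.94 CPM, 3.20 to 11.6) was highest in BCSP, at 7.10 and 11.6 CPM, and its call among the 8 populations was lost without BCSP input 2 (adjusted p = 0.251). Kmt2a, Setd1b and Setd7 did not pass, with log2 differences of 0.26 ± 0.16, 0.63 ± 0.29 and 0.35 ± 0.17. The H3K4 demethylases Kdm5a (0.70 ± 0.13), Kdm5b (0.34 ± 0.11) and Kdm1a (0.59 ± 0.14) were also higher in the stem and progenitor cells.

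Both H3K36 methyltransferases were lower in the stem and progenitor cells, Setd2 by -0.74 ± 0.13 and Nsd1 by -0.70 ± 0.13 on the log2 scale, each in all 16 fits that left out 1 library. Suv39h2 (-0.66 ± 0.26, adjusted p = 0.0459) and Setdb2 (-0.72 ± 0.21) were lower among the 4 H3K9 methyltransferases, and the Suv39h2 call was lost in 10 of the 16 fits without 1 library. Suv39h1 differed by 0.01 ± 0.15. Setd8 was higher, by 0.78 ± 0.16. Of 13 Jumonji genes tested, 2 were higher (Kdm5a and Kdm5b) and 4 were lower, namely Kdm7a (-1.12 ± 0.15), Kdm4a (-0.88 ± 0.19), Kdm3a (-0.50 ± 0.12) and Kdm3b (-0.40 ± 0.14). Kdm4a, an H3K9 and H3K36 demethylase, had a median of 7.89 CPM (5.41 to 13.5) against 14.9 CPM (9.73 to 22.2) downstream. None of the other 4 SET domain genes passed, with log2 differences from -0.29 to 0.17, and Kdm6b differed by 0.34 ± 0.18 (adjusted p = 0.131). Nsdhl was higher by 0.43 ± 0.17, a call lost in 12 of the 16 fits.

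Partners of these enzymes were taken from lists of known subunits. Of 9 PRC2 partners, 4 were higher in the stem and progenitor cells and 2 were lower. The EED subunit gene had a log2 difference of 0.79 ± 0.18, Mtf2 1.09 ± 0.15 and Rbbp7 0.85 ± 0.11, while Jarid2 had -0.56 ± 0.15 and Phf19 -1.24 ± 0.41. Suz12, which is needed for PRC2 activity, differed by -0.10 ± 0.17. So the partners did not move as 1 block with Ezh2. Of 11 COMPASS partners tested, 4 were higher, among them Wdr5 (1.12 ± 0.14) and Men1 (1.06 ± 0.12), and 3 were lower, among them Psip1 (-2.04 ± 0.16). Of the 4 genes under older symbols, 3 were lower, led by Whsc1, which encodes the H3K36 enzyme NSD2, at -1.14 ± 0.15. Of 15 tested enzymes outside the symbol rule, 4 were higher and 3 were lower.

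Other genes moved with the same split. Of 16 proliferation genes, 12 were lower and 1 was higher in the stem and progenitor cells, and their summed level was 438 to 556 CPM there and 508 to 860 CPM downstream. All 6 erythroid genes were lower in the stem and progenitor cells (0.726 to 5.83 against 17.2 to 143 CPM), and all 6 chondrocyte markers were higher, although their summed levels overlapped through HEC. Over the 8 population means, Ezh2 correlated with the proliferation sum at r = 0.838 (Spearman rho = 0.786) and with the erythroid sum at r = 0.949 (rho = 0.810), and Kmt2d at r = -0.726 (rho = -0.690) and r = -0.939 (rho = -0.690). Of the other members compared, r was -0.596 and -0.774 for Setd8 and 0.137 and -0.0583 for Suv39h1, proliferation sum first. It was 0.441 and 0.687 for Suv39h2 and 0.505 and 0.802 for Kdm7a. These 8 points share the libraries and the split into 2 sets, and the part of either list in the result was not tested. The genes whose log2 CPM was most like that of Ezh2 over the 8 means were Arhgap12, Zeb2, Epb41l2, Mgst3 and Lgals1 (r = 0.992 to 0.998), and among members Setd2 (0.948), Kdm4a (0.898) and Nsd1 (0.887).

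The IP libraries were then compared with the inputs to ask which member mRNAs were enriched by the m6A antibody. The ratio is the log2 difference of IP minus input. Input is also the mRNA measure, so a lower input raises the ratio where IP is unchanged. Averaged over the 8 WT populations, 16 of 38 members were higher in IP, beside 17.2% of the 25365 genes tested, and 11 were lower, beside 25.2%. Among the 13766 genes with a mean of at least 1 CPM in input the shares were 25.2% higher and 41.9% lower, and the 36 members among them counted 16 and 10. Of the 8 H3K4 methyltransferases 7 were higher, with a median log2 ratio of 1.32 over the 8, and Kmt2e was the exception at -0.14 ± 0.07.

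Setd7, a monomethyltransferase of H3K4 and other proteins, had the largest mean ratio, 1.63 ± 0.15 (SE, adjusted p = 1.26e-10), and its 16 replicate ratios ran from 1.03 to 2.48 with a median of 1.63. It was higher in IP in each of the 8 populations. Setd1b averaged 1.54 ± 0.18 (replicates -0.43 to 2.62, median 1.75), Setd1a 1.44 ± 0.17 (0.40 to 2.12, median 1.58) and Kmt2a 1.42 ± 0.13 (-0.09 to 2.21, median 1.49). The single negative replicates of Setd1b and Kmt2a were both from BCSP, and Kmt2a passed in the 7 populations other than BCSP. Kmt2b averaged 1.22 ± 0.21 and Kmt2c 0.88 ± 0.11. Kmt2d, at 0.37 ± 0.10 (adjusted p = 0.00324), was the lowest of the 7, ranged from -0.49 to 1.11 and passed in no single population.

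**Figure D3:**
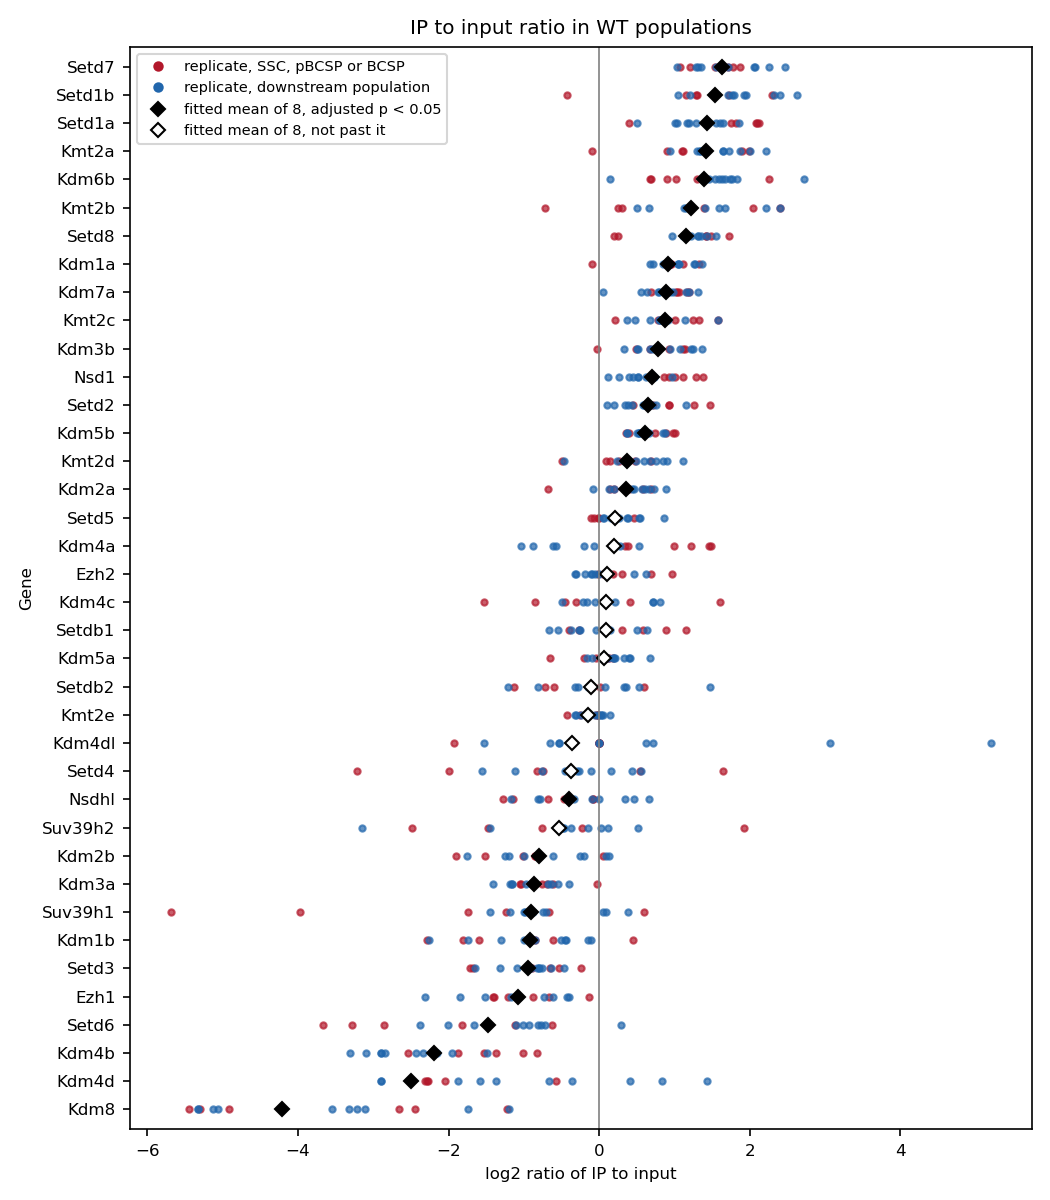
IP-to-input log2 ratio of each member in WT cells, ordered by the fitted mean; small dots are the 16 replicate pairs of the 8 populations and the diamond is the fitted mean of the 8 populations. All 16 Setd7 pairs lie above 0 and all 16 Kdm4b pairs lie below 0.

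Kdm6b was also enriched, at 1.39 ± 0.13 (adjusted p = 1.86e-10), with replicates from 0.15 to 2.73 and a median of 1.57, and was higher in 6 populations. Setd8 averaged 1.16 ± 0.13 with replicates from 0.20 to 1.73. Its 2 lowest replicates, 0.20 and 0.25, were the BCSP pairs, the population in which its mRNA was highest. Input enters both values, so they are not independent. The LSD demethylase Kdm1a averaged 0.92 ± 0.10 (-0.09 to 1.37, median 1.00) and both H3K36 methyltransferases were enriched, Nsd1 by 0.71 ± 0.09 and Setd2 by 0.66 ± 0.10. Ezh2 was not, with a mean of 0.10 ± 0.11 (adjusted p = 0.572) and replicates from -0.32 to 0.96. Its SSC pairs, at 0.69 and 0.96, passed in the joint fit of all WT libraries (edgeR adjusted p = 0.0363). That call was lost with SSC fitted apart (edgeR adjusted p = 0.115) and without a filter (0.117). Ezh1 was depleted, at -1.08 ± 0.14, with all 16 replicates below 0.

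Kdm4b was the most firmly depleted member, at -2.19 ± 0.12 (adjusted p = 2.03e-15), with all 16 replicates between -3.30 and -0.83 (median -2.24). It was lower in IP in each of the 8 populations, on 88 to 437 IP counts and 624 to 2104 input counts per library. Setd3 averaged -0.94 ± 0.11 (-1.71 to -0.25, median -0.81) and Kdm3a -0.86 ± 0.10 (-1.41 to -0.03, median -0.83). Setd6, which methylates the NF-kappaB subunit RELA, averaged -1.47 ± 0.25, and Suv39h1 -0.90 ± 0.31 with replicates from -5.69 to 0.60, where the lowest came from 2 IP counts in BCSP. Kdm8 was lowest of all but on few reads: 7 of its 16 IP libraries were at 0 counts, and pooled it had 110 IP counts against 1347 input counts, 8.94-fold lower in IP by CPM. In BCSP both Kdm8 IP libraries were at 0, which places input at least 54.2-fold above a floor of 3 counts over the group. Kdm4d, with 130 pooled IP counts, was 1.72-fold lower.

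The longest coding transcripts of 36 members had a median length of 5083.5 bases, against 3204 over 12398 genes, and 1.16 against 1.05 GGACT letters (the core of the m6A motif) per kilobase. Across members the ratio correlated with transcript length at a Spearman rho of 0.577, against 0.0577 over all genes. The 17 members with transcripts of 5224 bases or more had a median log2 ratio of 0.78, beside 0.20 for all genes of that length. All 8 H3K4 methyltransferases were among these members, with transcripts of 6487 to 19823 bases, so role and length cannot be told apart for them. The 9 members with 3742 to 5223 bases had -0.79 against -0.44, the 5 with 2743 to 3741 bases -0.11 against -0.74, the 3 with 1837 to 2743 bases -0.40 against -0.80, and the 2 shorter ones -0.92 against 0.10. The medians did not rise steadily with length, in members or in all genes. Genes are not independent replicates, and these values describe the list only.

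The enriched members were also counted within single populations. In SSC 15 of 38 members were higher in IP (6.97% of all genes), in pBCSP 13 (6.86%), in BCSP 4 (5.23%), in BLSP 7 (3.93%), in PCP 4 (4.26%), in HEC 6 (4.59%), in THY 6 (4.84%) and in 6C3 6 (5.62%). The order of the populations depended on the fit. With each population fitted apart the counts were 14 in HEC, 12 in BLSP, 10 in pBCSP, 9 in THY, 6 in SSC, 6 in 6C3, 3 in PCP and 0 in BCSP, so no order is read from them. Over all genes those fits called 2549 of 16541 higher in IP in HEC, 2126 of 18425 in BLSP and 1498 of 16367 in pBCSP. They called 1774 of 15923 in THY, 654 of 15780 in SSC and 1833 of 16904 in 6C3. In PCP the number was 901 of 18564 and in BCSP 136 of 16040. The member counts also moved with single libraries. Without SSC input 1 the SSC count was 4 and without SSC IP 2 it was 7, and the pBCSP count was 6 without pBCSP input 1. Without 1 library the counts of the other populations fell as low as 1 in BCSP (without BCSP input 1), 2 in PCP (without any of its 4 libraries), 1 in THY (without THY input 1), 0 in BLSP (without BLSP input 2), 3 in 6C3 (without 6C3 input 1 or IP 1) and 1 in HEC (without HEC input 2 or IP 1). A HEC count of 10 was obtained when each IP library was blocked with its input, beside 1388 of 25365 genes. Besides the members named above, the SSC list held Kdm4a (1.33 ± 0.44, adjusted p = 0.0336) and Kdm3b.

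Whether the ratio itself differed among the 8 populations was tested by the interaction of population and library kind. At an adjusted p under 0.05 only Kdm4b passed (adjusted p = 0.0440), 1 of 38 members, beside 0.485% of all genes. With IP and input of a replicate blocked as a pair, Kdm4b (adjusted p = 0.00714) and Kdm6b (0.00591) passed, and with RLE scaling or scaling on library size none did. The Kdm4b call held in 7 of 32 fits without 1 library. The next members in order of p were Nsd1 and Kdm4a (both adjusted p = 0.490) and Ezh2 (0.752), and Ezh1, Kmt2a, Kmt2d, Setd2, Setd8, Suv39h1 and Kdm6b had adjusted p from 0.798 to 1.

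In the contrast of SSC, pBCSP and BCSP against the 5 downstream populations, the ratio of 3 members was higher in the stem and progenitor cells, beside 3.06% of all genes, and that of 0 was lower, beside 1.77%. At an unadjusted p under 0.05 the count in either direction was 6. DESeq2 called 3 members, beside 7.7% of all genes. The IP libraries of these sets of populations also differed in mitochondrial share and genes detected, and the part of this in the ratio was not tested. The replicate ratios of Kdm4b (chr17:56326062-56402870, plus strand) were -1.01 and -1.53 in SSC, -1.88 and -2.54 in pBCSP, -0.83 and -1.37 in BCSP, -2.85 and -2.89 in PCP, -2.34 and -1.48 in THY, -1.96 and -2.43 in BLSP, -3.30 and -2.89 in 6C3, and -2.15 and -3.10 in HEC. The sets overlapped, since the pBCSP pairs and 1 SSC pair lay at or below the higher THY pair, and the difference was 1.20 ± 0.23 (adjusted p = 0.00213). Kdm4b therefore remained below 0 everywhere and was least depleted in BCSP and SSC.

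For Kdm4a (chr4:118136957-118180043, minus strand) the ratios were 1.48 and 1.00 in SSC, 1.46 and 0.38 in pBCSP, 1.22 and 0.34 in BCSP, -0.58 and -0.20 in PCP, 0.53 and -1.04 in THY, 0.19 and -0.06 in BLSP, 0.27 and -0.61 in 6C3, and 0.20 and -0.87 in HEC. All 6 stem and progenitor pairs were above 0, against 4 of the 10 downstream pairs, and the difference was 1.34 ± 0.31 (adjusted p = 0.0108). The mRNA of Kdm4a and of Nsd1 was lower in the same cells. Input enters the mRNA level and the ratio, so these results are not independent. The Nsd1 gene lies at chr13:55209782-55318325 on the plus strand. Its ratios were 0.86 to 1.38 (6 pairs) against 0.11 to 0.97 (10 pairs), a difference of 0.76 ± 0.19 (adjusted p = 0.0178). With RLE scaling (edgeR adjusted p = 0.0763) or without a filter (0.0795), Nsd1 missed the threshold. The Nsd1 call was lost without SSC input 1, SSC IP 2, 6C3 IP 2 or HEC IP 2 (adjusted p up to 0.0682), whereas those of Kdm4a and Kdm4b held in all 32 fits without 1 library. Setd2 (0.61 ± 0.20, adjusted p = 0.0763) and Ezh2 (0.56 ± 0.22, adjusted p = 0.167) missed the threshold with the same sign, and Ezh1, Kmt2a, Kmt2d, Setd8, Suv39h1 and Kdm6b lay between -0.50 and 0.33.

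**Figure D4:**
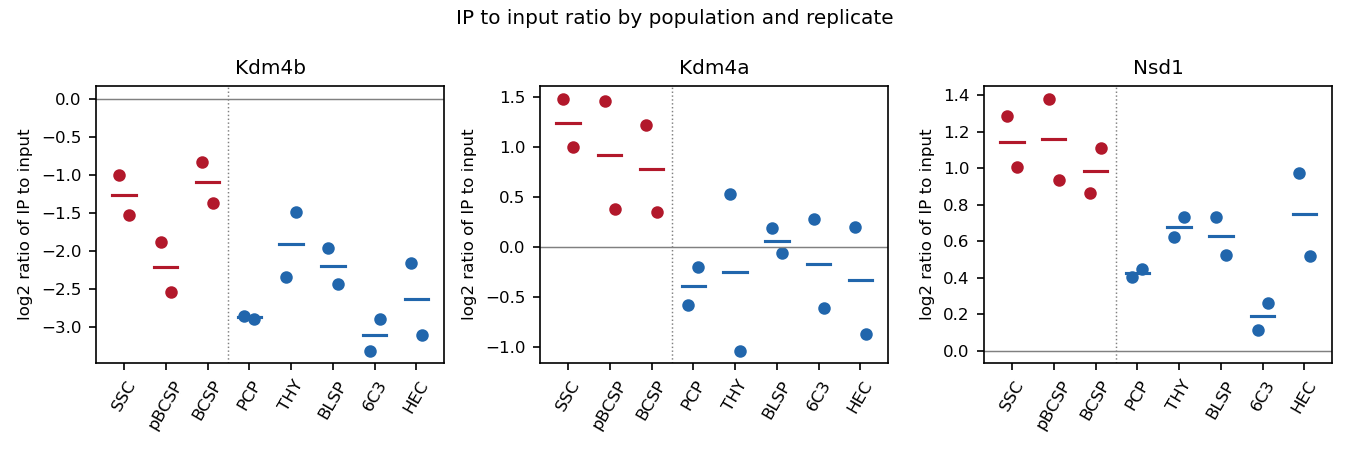
IP-to-input log2 ratio of Kdm4b, Kdm4a and Nsd1 in each WT population; each point is 1 replicate pair and a bar is the mean (n = 2). Kdm4b is below 0 in all 16 pairs, Nsd1 is above 0 in all 16 pairs, and Kdm4a is above 0 in the 6 stem and progenitor pairs.

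The last comparisons set Mettl3cko against WT within SSC, pBCSP and BCSP, the question being whether loss of the m6A writer METTL3 is accompanied by a change in these mRNAs. In no single population did a member pass an edgeR adjusted p under 0.05. The count was 0 of 37 in SSC (0% of 18655 genes), 0 in pBCSP (0.0375%) and 0 in BCSP (0.0643%). At an unadjusted p under 0.05, 4 members passed in SSC (10.9% of all genes), 5 in pBCSP (11.5%) and 3 in BCSP (12.4%). DESeq2 called Kdm6b and Kmt2d in SSC (3% of all genes), Kdm5a in pBCSP (2.65%) and Kdm2b in BCSP (3.56%). Averaged over the 3 populations, 3 members were higher in Mettl3cko, beside 3.75% of all genes, and 0 were lower, beside 2.72%.

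Kdm6b was at 1917 and 1649 CPM in Mettl3cko SSC against 886 and 963 in WT, at 1872 and 1210.0 against 1006 and 1019.7 in pBCSP, and at 1177 and 1317 against 1153 and 1057 in BCSP. Both Mettl3cko libraries exceeded both WT libraries in each of the 3 populations, by 1.93-fold, 1.52-fold and 1.13-fold in mean. The mean log2 difference was 0.59 ± 0.12 (adjusted p = 0.0152), and it reached 0.0502 without WT pBCSP input 2. Kdm2b (chr5:122870665-122989823, minus strand), a demethylase of H3K36 that recruits a variant Polycomb complex to CpG islands, was at 37.3 and 39.4 against 25.1 and 18.0 CPM in SSC, at 29.4 and 27.5 against 27.02 and 22.9 in pBCSP, and at 37.7 and 23.4 against 12.9 and 17.8 in BCSP. It too was higher in all 3 populations without overlap, by 0.69 ± 0.17 (adjusted p = 0.0322), but the call was lost in 8 of 12 fits without 1 library.

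Kmt2d was at 222 and 232 CPM in Mettl3cko SSC against 139 and 129 in WT, at 307 and 188 against 154 and 171 in pBCSP, and at 175 and 169 against 136 and 179 in BCSP. The groups did not overlap in SSC and pBCSP and overlapped in BCSP, the mean difference was 0.51 ± 0.14 (adjusted p = 0.0451), and the call was lost in 10 of 12 fits without 1 library. Kdm5a had the next smallest p, with 73.0 and 86.4 against 103 and 105 CPM in SSC, 31.6 and 59.1 against 83.1 and 114 in pBCSP and 64.7 and 86.1 against 70.0 and 96.6 in BCSP, and a mean difference of -0.54 ± 0.18 (adjusted p = 0.0941). Without WT pBCSP input 2 no member passed in the mean of the 3 populations.

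**Figure D5:**
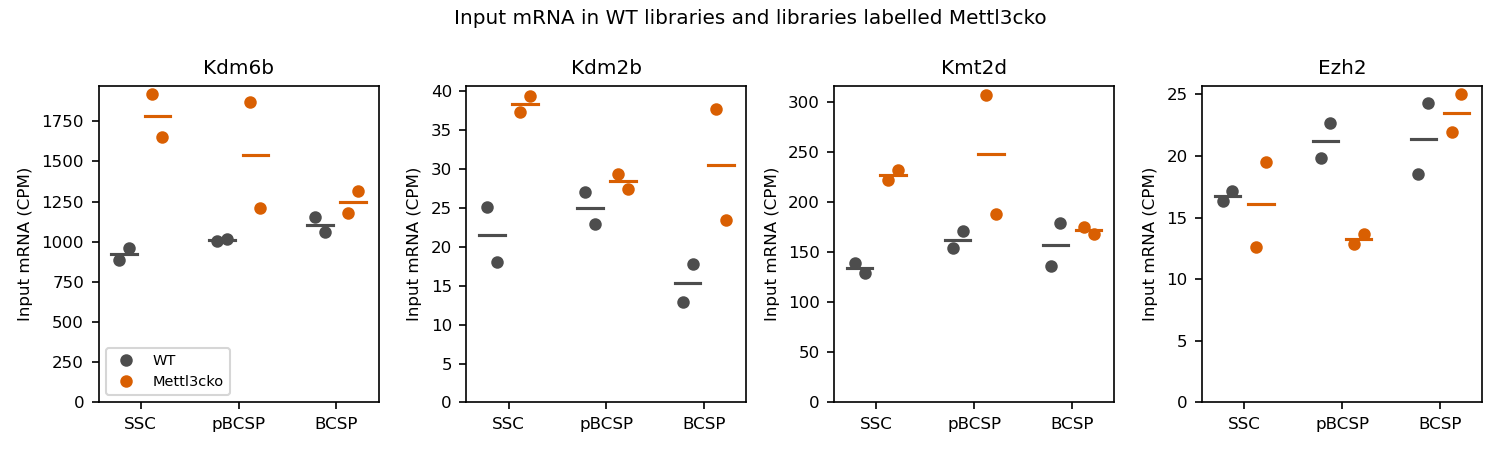
Input level (CPM, TMM-scaled) of Kdm6b, Kdm2b, Kmt2d and Ezh2 in WT and Mettl3cko libraries of SSC, pBCSP and BCSP; each point is 1 library and a bar is the mean (n = 2 per group). Both Mettl3cko points of Kdm6b and Kdm2b lie above both WT points in all 3 populations, and the Ezh2 groups overlap in SSC and BCSP.

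Ezh2 was at 12.6 and 19.5 against 16.4 and 17.2 CPM in SSC, at 12.8 and 13.6 against 19.8 and 22.6 in pBCSP, and at 21.9 and 25.1 against 18.5 and 24.3 in BCSP, with a mean difference of -0.19 ± 0.17 (adjusted p = 0.568). Ezh1 (-0.32 ± 0.33), Kmt2a (-0.05 ± 0.18), Setd2 (-0.27 ± 0.19), Setd8 (-0.00 ± 0.23) and Suv39h1 (0.26 ± 0.20) did not pass either. Among 37 members the genotype difference differed between populations in 0 at an adjusted p under 0.05 (0% of all genes) and in 1, Kmt2b, at an unadjusted p under 0.05 (4.5%), with 0 members called by DESeq2. In the same mean over 3 populations, 5 of 16 proliferation genes and 3 of 5 tested erythroid genes were higher in Mettl3cko, and 1 of 9 PRC2 partners was higher. Summed proliferation levels were 470 to 837 CPM in Mettl3cko and 438 to 556 CPM in WT. The part of these lists in the differences was not tested.

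For the IP-to-input ratio the Mettl3cko comparison rested on the 6 IP libraries described above. The median change over all genes on the log2 scale was -0.13 in BCSP, -0.23 in pBCSP and -0.26 in SSC. In SSC 1 of 37 members passed (1.1% of 20360 genes), in pBCSP 0 (0.0688%), in BCSP 0 (0%), and in the mean of the 3 populations 0 (3.94%). At an unadjusted p under 0.05 the counts were 2 in pBCSP (9.71% of all genes), 2 in BCSP (8.9%) and 3 in the mean (17%). DESeq2 called 1, 1 and 2 members there, beside 3.92%, 3.4% and 11% of all genes. The 1 member was Nsdhl, the sterol enzyme, with 2 and 0 IP counts in Mettl3cko SSC against 298 and 313 in WT on inputs of 387, 536, 456 and 437 counts. Its IP level was 336-fold higher in WT (95% exact interval of the ratio of counts 92.6 to 2781, counting error only), and the adjusted p was 0.00819 without and 0.0743 with the IP–input block. The same gene had 863 and 288 IP counts in Mettl3cko pBCSP and 614 and 115 in BCSP.

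Kmt2d was lower in all 3 populations without passing, by -1.34 ± 0.62 in SSC, -1.47 ± 0.62 in pBCSP and -0.82 ± 0.62 in BCSP, and by -1.21 ± 0.36 in the mean (adjusted p = 0.0664). Its input mRNA, the denominator of the ratio, was higher in Mettl3cko by 0.51 in the mean. Its replicate ratios were -0.07 and -2.25 against 0.70 and 0.27 in SSC, -1.42 and -0.81 against 0.48 and 0.15 in pBCSP, and -1.19 and -0.85 against 0.09 and -0.49 in BCSP, with every Mettl3cko pair below both WT pairs. Kdm4a had 10 and 14 IP counts in Mettl3cko SSC against 374 and 434 in WT (adjusted p = 0.0900), but 286 and 408 against 386 and 398 in BCSP. The replicates of single members disagreed widely: Kdm4b had 11 and 991 IP counts in Mettl3cko pBCSP, and Suv39h1 had 582 and 0 in BCSP. The mean changes of Ezh1 (0.43 ± 0.80), Ezh2 (0.00 ± 0.48), Kmt2a (0.33 ± 0.49), Setd2 (0.27 ± 0.36), Setd8 (-0.36 ± 0.56), Suv39h1 (-1.31 ± 1.38) and Kdm6b (0.28 ± 0.40) did not pass, and their standard errors ran from 0.36 to 1.38 on the log2 scale. Without Mettl3cko SSC IP 1 that group keeps 1 IP library, with 12685 genes detected, so no member is named from that fit.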

How the data were processed

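The deposited table holds read counts per gene, not normalized, for 44 libraries of input RNA and m6A IP RNA (SLIM-seq, paired-end). The authors trimmed reads with fastp 0.20.1, aligned them with HISAT2 2.2.1 to GRCm38 and counted them with featureCounts 2.0.1, and the strand setting and gene annotation are not given in the sources used here. Entries named 1-Mar or 2-Mar (128 of 46959, at most 0.390% of a library's counts) were dropped. Deposited tables of the authors' own comparisons, with fold changes and p-values of Mettl3 deletion, were not used. The members and gene lists were chosen with earlier results of these data known.

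Counts were filtered with filterByExpr, scaled by TMM and tested with edgeR 4.0.16 (quasi-likelihood, limma 3.58.1, R 4.3.3) in joint fits of the WT inputs, all WT libraries, and the inputs or all libraries of SSC, pBCSP and BCSP. P-values were adjusted by Benjamini and Hochberg over all genes tested, with a threshold of 0.05. CPM values are TMM-scaled, and replicate log2 ratios of IP to input used a prior count of 2. Confidence intervals and floors cover counting error only. Each group had 2 replicates, described as independent experiments. The study divided the cells of one sort between IP and input, so IP and input of one number are a pair (correlation of deviations 0.0168 to 0.572 over 8182 genes). Numbers pair neither populations (-0.515 to 0.446) nor genotypes (-0.0672 to 0.0615). Values in libraries were given for members past the threshold, at most the 10 with the smallest p, or the 4 with the smallest p where fewer passed, and 8 genes (Ezh1, Ezh2, Kmt2a, Kmt2d, Setd2, Setd8, Suv39h1 and Kdm6b) were described throughout. Lists of PRC2 partners, COMPASS partners, other lysine enzymes, genes under older symbols, proliferation genes and cell markers were counted. Values were also given for some genes of these lists, and the choice of those genes was not fixed in advance. Alternatives were DESeq2 1.42.0, RLE factors, library size alone, no filter, a replicate block, separate fits, the study's thresholds and leaving out each library. Without 1 library, the fits that include IP kept the mean-dispersion trend of the full fit, and a lone library was assumed to vary like the other groups. The fits were tested on simulated data. Positions are from GENCODE vM21, and figures were drawn with matplotlib 3.10.9 in Python 3.11.15.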

Additional observations from a re-analysis of the deposited data

Results flagged for a closer look

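In WT cells the IP-to-input ratio of Kdm4b differed among the 8 populations (edgeR adjusted p = 0.0440), and between the stem and progenitor populations and the downstream populations it differed by 1.20 on the log2 scale (adjusted p = 0.00213). The same contrast differed for Kdm4a by 1.34 (adjusted p = 0.0108). For Nsd1 it differed by 0.76 (adjusted p = 0.0178, but 0.0763 with RLE scaling and 0.0795 without a filter). These were picked out because the difference between populations was itself tested by an interaction term. The IP libraries of the stem and progenitor set also had a lower mitochondrial share than those downstream, and its part was not tested. In Mettl3cko against WT SSC the ratio of Nsdhl had a fitted log2 difference of -8.04 (adjusted p = 0.00819), on 2 and 0 IP counts, so the fitted size depends on the prior count and is no bound. Groups of 2 libraries were too small to look for a library far from the others.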

How the results depend on the processing

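No called value changed sign, but the order of the populations by IP count did, since separate fits placed HEC and BLSP above SSC and pBCSP. With the study's thresholds (unadjusted p) the members higher and lower in IP were 7 and 5, the ratio differed in 3 among the 8 populations and in 6 between stem and downstream cells, Mettl3cko mRNA in 4 (SSC), 5 (pBCSP) and 3 (BCSP) and between populations in 1, and the Mettl3cko ratio in 4, 2, 2 and 3 (mean). DESeq2 called 8 members higher in IP in BCSP, 13 in HEC, 12 in BLSP, 11 in PCP, 10 in 6C3 and 12 in THY. Of 25365 genes it called 2125, 1987, 2056, 2194, 2447 and 2201 higher, in the same order of populations. In Mettl3cko mRNA it called 2, 1 and 1 (3%, 2.65% and 3.56% of all genes). In the Mettl3cko ratio it called 3, 1, 1 and 2 (7.86%, 3.92%, 3.4% and 11% of all genes). RLE factors gave 7 in PCP (1550 of 25365 genes), 11 in HEC (1388 genes) and 0 for the ratio among 8 (97 genes). Library size alone also gave 0 for the ratio among 8 (112 genes). Without a filter the ratio differed in 2 (866 of 39042 genes). Mettl3cko mRNA differed in 1 (SSC, 459 of 27754 genes) and 1 (pBCSP, 493 genes). The Mettl3cko ratio differed in 1 (pBCSP, 206 of 29336 genes) and 1 (mean, 1411 genes). Separate fits gave 6 in SSC (654 of 15780 genes), 0 in BCSP (136 of 16040), 12 in BLSP (2126 of 18425) and 14 in HEC (2549 of 16541). They gave 0 for the Mettl3cko SSC ratio (0 of 17224 genes). The replicate block treated IP and input as a pair in the fits that include IP. In the mRNA fits it was a term for the replicate number, shared by all groups. With this block HEC had 10 (1388 of 25365 genes), the ratio among 8 populations 2 (923 genes) and the Mettl3cko SSC ratio 0 (39 of 20360 genes). No other count moved by over 1.5 times with it. The cause of these differences was not tested.

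Leaving out 1 library gave 12 to 17 members differing among the 8 populations, 7 to 10 higher and 8 to 11 lower in stem and progenitor mRNA, and 14 to 17 higher and 10 to 13 lower in IP. By population the IP count was 4 to 15 (SSC), 6 to 13 (pBCSP), 1 to 4 (BCSP), 2 to 4 (PCP), 1 to 7 (THY), 0 to 7 (BLSP), 3 to 7 (6C3) and 1 to 8 (HEC). The ratio differed in 0 to 1 among 8 and in 2 to 4 between stem and downstream cells. Mettl3cko mRNA counts were 0 to 1 (SSC), 0 to 3 (pBCSP, 3 without Mettl3cko pBCSP input 2), 0 to 0 (BCSP), 0 to 4 (mean) and 0 to 0 (between populations), and Mettl3cko ratio counts 0 to 6 (SSC), 0 to 0 (pBCSP), 0 to 0 (BCSP) and 0 to 5 (mean, 5 without Mettl3cko SSC IP 1). The shares over all genes in the fits without 1 library are not given. Their counts describe how calls moved and are not results about the members. For single members, 8100 alternative values stayed on their side of the threshold, 319 lost the call and 121 gained it. Scaling moved the all-gene median from -0.11 to -0.21 for stem against downstream mRNA with library size alone, and from -0.08 to -0.24 for the ratio with RLE factors.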

Other observations

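Other lists were counted in the contrast of stem and progenitor against downstream mRNA. Of 6 osteoblast markers 5 were higher in the stem and progenitor cells and 1, Col1a1, was lower by -3.66 ± 0.12 (SE, edgeR adjusted p = 1.08e-11), and the summed level of the list ran the other way from most of its members, at 5526 to 11598 CPM against 62366 to 141548 CPM downstream. All 5 stroma markers were lower, and of 5 markers used in the sort 1 was higher and 3 were lower. Of 7 blood markers 1 was higher and 2 were lower, of 4 muscle markers 2 were lower, and of 5 endothelial markers 0 passed the edgeR adjusted p of 0.05. The mRNA of Smyd3, a SET domain enzyme outside the symbol rule, was higher by 1.63 ± 0.16 (SE, adjusted p = 3.47e-07), and that of Mecom was lower by -1.06 ± 0.20 (adjusted p = 0.000326). In the IP comparison, 3 of 9 PRC2 partners were higher and 4 lower, 5 of 11 COMPASS partners were higher and 5 lower, and 4 of 15 other lysine enzymes were higher and 5 lower.

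The IP-to-input ratio of Whsc1l1, which encodes NSD3 and is listed under its older symbol, was higher in the stem and progenitor cells by 0.79 ± 0.18 (adjusted p = 0.00759), and that of the COMPASS partner Hcfc1 by 0.77 ± 0.22 (adjusted p = 0.0398). In the mean Mettl3cko mRNA comparison, 0 of 11 COMPASS partners passed, 1 of 15 other lysine enzymes was lower and 1 of 4 genes under older symbols was higher.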
